A study of Mus musculus with 31 samples.

Results

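Integrins are the cell-surface receptors through which a cell holds on to its matrix, and laminins are the matrix proteins that most of a basement membrane is built from. The genes described here are the 33 of the 16301 genes in a bulk RNA table of mouse spinal cord ependymal cells that carry a symbol of an integrin alpha chain (13 genes), an integrin beta chain (5), a laminin alpha (5), beta (3) or gamma (2) chain, or that are Nid1, Nid2, Hspg2, Agrn or Dag1. They were chosen by name and not by their values, and binding proteins of integrins were left out. All 33 passed the filter on low values.

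The mice were of the C57BL/6 background and of 2 genotypes. Foxj1-tdT mice carry a red fluorescent reporter tied to Foxj1, a gene of multiciliated cells, and Foxj1-Olig2-tdT mice carry in addition Olig2, which encodes a transcription factor of oligodendrocytes and their progenitors. In the published study both are activated by a tamoxifen-inducible Cre recombinase under Foxj1, so the control genotype shares the Cre and the reporter. The bulk data were 12 Smart-seq2 libraries of sorted ependymal cells, 2 per genotype without injury and at 1 and 5 dpi (read here as days after injury). Below, the Foxj1-tdT libraries are called control and the Foxj1-Olig2-tdT libraries Olig2, and values are given with replicate 1 first. Single-cell RNA data covered ependymal cells of 6 samples (each genotype uninjured and at 2 and 4 wpi, read as weeks after injury), and a single-cell ATAC experiment covered non-neuronal cells of uninjured cord (1 sample). The labels give no age and no number of animals or cells per library. Replicates may thus be technical, and a p-value reflects only how far deposited libraries of the same group lie apart, with the spread shared over all 6 groups.

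An integrin is a pair of 1 alpha and 1 beta chain. Pairs with the alpha 3, 6 or 7 chain bind laminin, alpha 1 and 2 with beta 1 bind collagen and laminin, alpha 5 with beta 1 binds fibronectin, and the alpha v chain with beta 1, 3, 5 or 8 binds ligands with an arginine-glycine-aspartate motif. A laminin is a trimer of 1 alpha, 1 beta and 1 gamma chain. Nidogens link the laminin network to that of collagen IV, perlecan (Hspg2) and agrin (Agrn) are heparan sulfate proteoglycans of the basement membrane, and dystroglycan (Dag1) is a laminin receptor outside the integrin family. Ependymal cells form the epithelium around the cord's central canal, and in the brain they contact laminin-rich extensions of vessel basement membranes called fractones.

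Olig2 was at 1690.3 to 3961 normalised counts in the 6 Olig2 libraries and at 2.2 to 195 in the 6 control libraries, the highest control value being that of 5 dpi replicate 2. Deposited values summed to between 12601290 and 13878102 per library, and the true depth is unknown. The control uninjured libraries stood apart from all other pairs in how alike they were: their log2 values correlated at r = 0.989, against 0.864 to 0.928 in the other groups. Genes listed at 0 in 1 library and at no less than 50 in its partner numbered 5, against 56 to 412 in other groups. The counts below are therefore also given with this pair entered as 1 library. All 7 ependymal markers were above 0 in every library, and their summed share of a library fell from 0.704% to 0.859% without injury to 0.199% to 0.239% in control and 0.0395% to 0.0552% in Olig2 libraries at 5 dpi. In bulk samples, fewer cells of a type and less RNA per cell cannot be told apart.

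The promoters of 4 members are shown first, because these genes carry the contrasts described below. Itga5 was almost absent before injury and high after it, Itgb8 was high throughout, and Lama5 and Lamb2 are laminin chains that differed between cell classes or genotypes. The sequences are from RefSeq on GRCm38.p6 (mm10), run 5′ to 3′ in the direction of the gene, and span 250 bases before to 50 bases after its annotated start. They lie at chr15:103366742-103367041 (Itga5, minus strand), chr12:119238227-119238526 (Itgb8, minus), chr2:180225810-180226109 (Lama5, minus) and chr9:108479612-108479911 (Lamb2, plus). Capitals mark every match on either strand to GGGCGG (the GC box bound by Sp1) and would mark TGANTCA (a form of the AP-1 site), which none of the 4 holds. The 2 motifs do not overlap each other.
Itga5: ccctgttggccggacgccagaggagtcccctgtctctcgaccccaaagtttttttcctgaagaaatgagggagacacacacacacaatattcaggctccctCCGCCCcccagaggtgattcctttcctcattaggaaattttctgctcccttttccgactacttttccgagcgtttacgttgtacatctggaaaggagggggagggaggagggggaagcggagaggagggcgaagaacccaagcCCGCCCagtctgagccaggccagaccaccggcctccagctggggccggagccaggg
Itgb8: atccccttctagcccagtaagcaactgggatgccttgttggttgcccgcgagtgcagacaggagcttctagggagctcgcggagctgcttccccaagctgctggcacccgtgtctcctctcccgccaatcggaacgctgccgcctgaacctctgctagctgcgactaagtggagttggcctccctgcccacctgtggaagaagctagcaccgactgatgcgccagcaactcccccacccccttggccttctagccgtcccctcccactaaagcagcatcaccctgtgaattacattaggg
Lama5: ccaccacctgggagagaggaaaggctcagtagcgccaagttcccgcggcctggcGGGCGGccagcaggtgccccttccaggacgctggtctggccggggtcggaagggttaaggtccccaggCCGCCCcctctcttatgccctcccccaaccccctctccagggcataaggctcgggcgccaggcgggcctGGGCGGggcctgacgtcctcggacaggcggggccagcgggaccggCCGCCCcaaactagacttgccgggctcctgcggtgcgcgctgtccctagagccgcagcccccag
Lamb2: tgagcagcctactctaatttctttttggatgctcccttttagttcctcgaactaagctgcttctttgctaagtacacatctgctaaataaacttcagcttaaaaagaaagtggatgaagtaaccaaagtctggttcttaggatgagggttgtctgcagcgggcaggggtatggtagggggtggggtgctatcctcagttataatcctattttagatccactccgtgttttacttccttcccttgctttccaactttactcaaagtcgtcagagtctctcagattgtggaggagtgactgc
GGGCGG was found 2 times in the Itga5 promoter, 4 times in that of Lama5, and in neither of the others. Of 26 promoters of the 22 members with an entry, 17 (65.4%) held it, against 35.7% of 32851 mouse promoters of the same length, and 2 (7.69%) held TGANTCA, against 7.81%. The Lamb2 promoter had a GC content of 44.0% and the other 3 had 58.7% to 72.7%. All 4 overlapped a peak of open chromatin in the single-cell ATAC data, at chr15:103365745-103367030 (Itga5), chr12:119237168-119239877 (Itgb8), chr2:180224269-180226435 (Lama5) and chr9:108478556-108480408 (Lamb2).

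After injury the clearest and most general change was a rise. In Olig2 libraries at 5 dpi against uninjured, 13 members rose and 3 fell, with 17 not passing (limma, adjusted p under 0.05 over 15811 genes), where 31.2% of all genes were called, 17.2% higher and 14% lower. In control libraries over the same interval 9 rose and 0 fell, where 23% of all genes were called, 13.8% higher and 9.21% lower. The median log2 fold change of the 33 members was 1.89 in Olig2 and 0.93 in control libraries, and 1.52 and 0.81 without the members that were at 0 in a group, against 0.12 and 0.04 over all genes tested. With the near-identical pair as 1 library, 13 members passed in Olig2 libraries (11 higher and 2 lower, where 26.4% of all genes were called) and 5 in control libraries (all higher, where 8.28% of all genes were called in either direction). Another scaling of the libraries, quantile normalization, lowered the median of all genes by 0.16 in the Olig2 and 0.11 in the control comparison. The medians of the 33 members under that scaling are not given here.

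At 1 dpi members were called in both directions. In control libraries 4 rose and 5 fell, where 27.4% of all genes were called, 15.4% higher and 12% lower, and 1, Itga5, still passed with the pair as 1 library (11.1% of all genes called). In Olig2 libraries 3 rose and 1 fell, where 8.09% were called, 5.93% higher and 2.16% lower, and again Itga5 alone still passed (5.2% of all genes called). From 1 to 5 dpi 6 members rose in control libraries (5.85% of all genes called, 2.74% higher and 3.11% lower). In Olig2 libraries 11 rose (13.9% called, 5.95% higher and 7.93% lower), and none fell in either genotype. With the pair as 1 library these counts were 3 and 8, where 2.88% and 9.84% of all genes were called. An unadjusted limma p under 0.05 was found for 13 and 24 members. The share of all genes at that unadjusted threshold was not computed. Over 11 comparisons there were 62 calls in 24 members. Of these, 22 calls in 12 members held under each of the 6 settings of the model, scaling and filter and without each of the 12 libraries in turn. They are called firm below. The other 40 were each lost under at least 1 of these, and those reported are given with the main settings or libraries that end them. Losses under a replicate block are mostly given only as a number at the end.

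**Figure D1:**
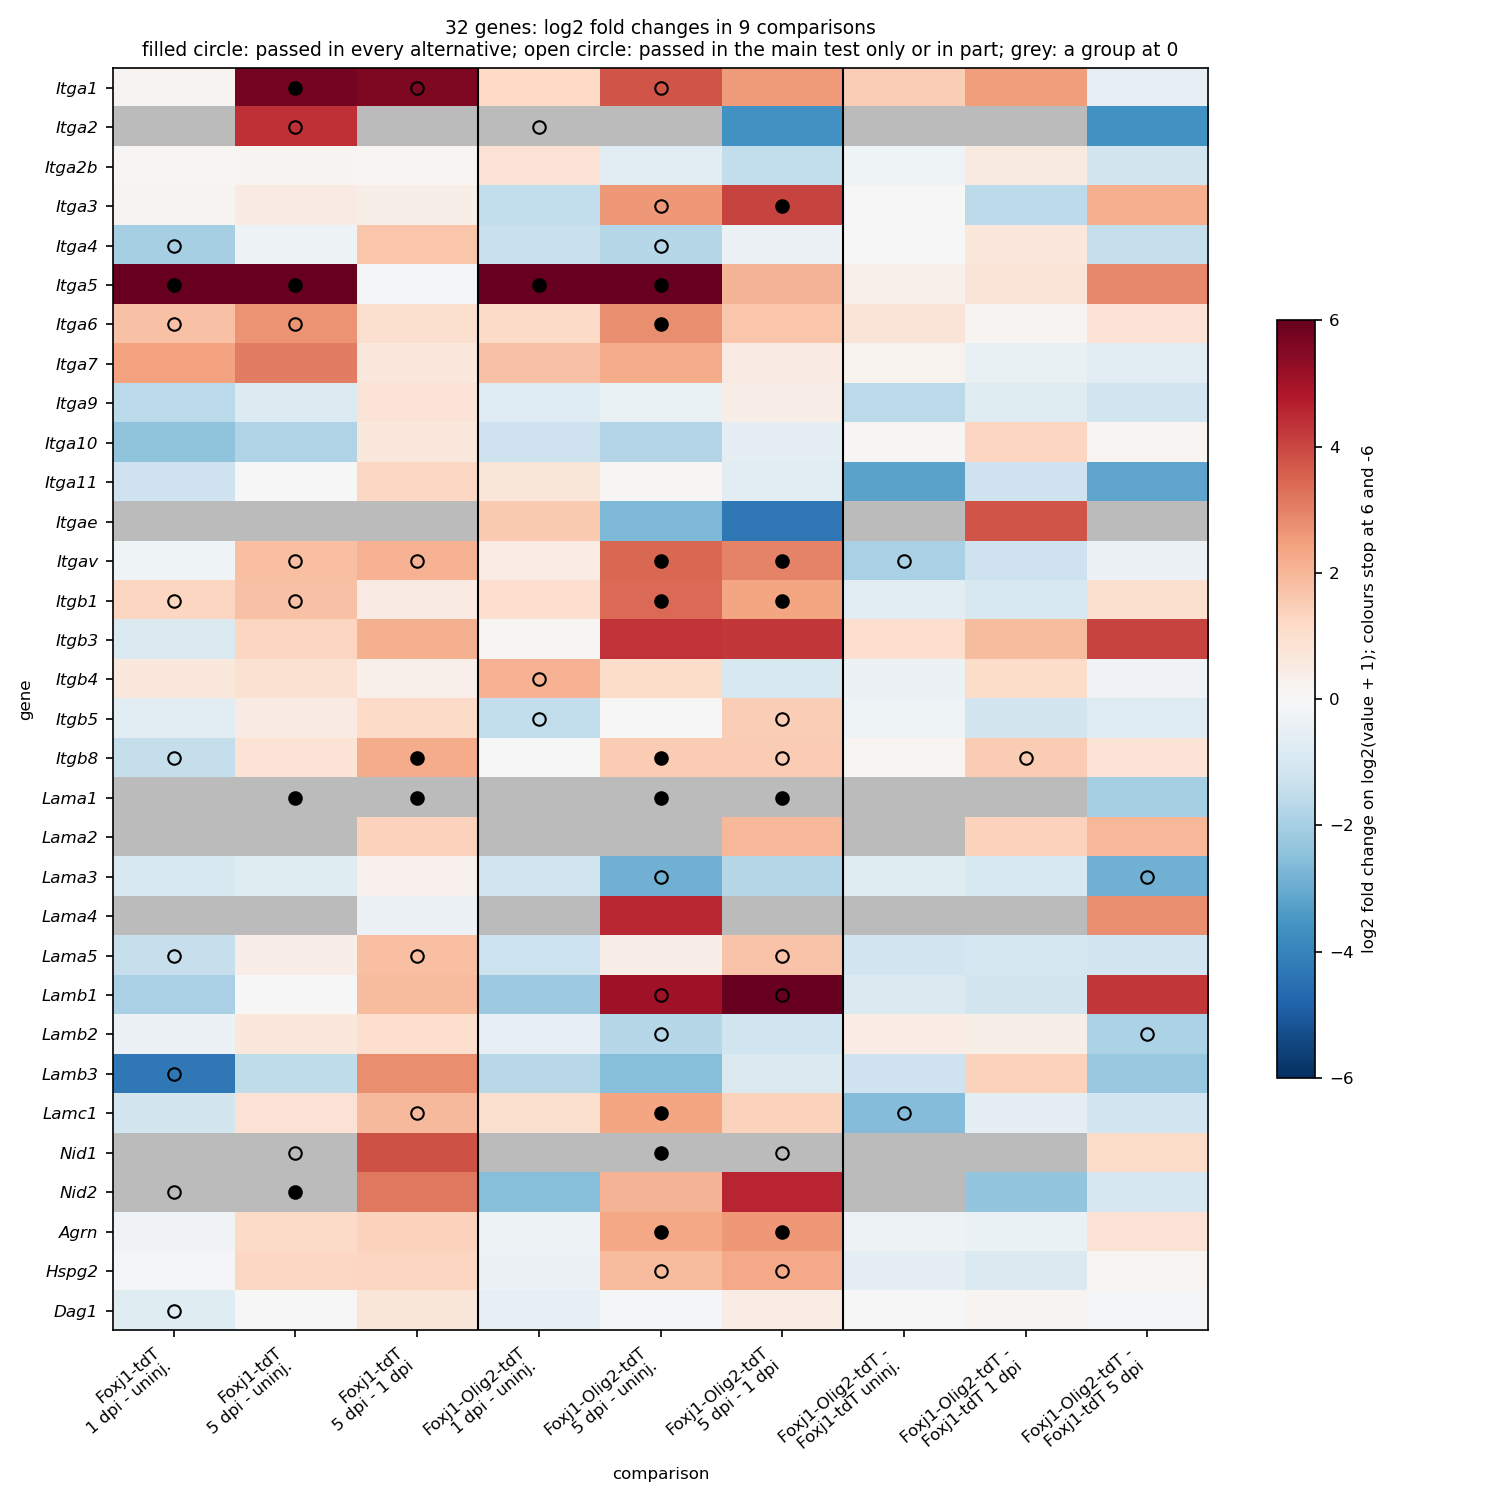
Log2 fold changes of 32 genes (rows) in 9 comparisons (columns), on the log2(value + 1) scale; filled circles mark the firm calls, open circles those lost in at least 1 alternative, and grey cells have a group with both libraries at 0, where no fold is given. Red prevails in the columns of 5 dpi, with 13 genes higher in Olig2 and 9 in control libraries, and the 3 genotype columns on the right hold 5 calls of these genes, all of them open.

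Among integrin alpha chains, Itga5, the chain that pairs with beta 1 as the main fibronectin receptor, changed most. Uninjured control libraries held 2.2 and 0.9 normalised counts of it, those of 1 dpi 217 and 1377, and those of 5 dpi 846 and 326. In Olig2 libraries its values were 2.1 and 2.0, then 720.1 and 1194, then 4343 and 3444. All 8 libraries after injury lay above 200 and all 4 uninjured ones below 3, and the Olig2 libraries at 5 dpi lay above all others. The log2 fold changes against uninjured were 7.80 (SE 0.81, limma adjusted p = 0.000163) at 1 dpi and 7.74 (adjusted p = 0.000263) at 5 dpi in control libraries. In Olig2 libraries they were 8.25 (adjusted p = 0.000353) and 10.31 (adjusted p = 1.39e-05). All 4 calls were firm. Because the uninjured values are close to 0 these sizes depend on the pseudocount, and with 8 in place of 1 they were between 5.81 and 8.59. The difference between the genotypes at 5 dpi did not pass.

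Itgav, the alpha v chain, was high before injury and rose late. Uninjured control libraries had 1499 and 1613 normalised counts, those of 1 dpi 1126 and 1455, and those of 5 dpi 4844 and 6215. Olig2 libraries had 204 and 772, then 614 and 481, then 4432 and 4186. The 4 libraries of 5 dpi lay above the other 8. In Olig2 libraries the rise was firm, by 3.43 (SE 0.47, adjusted p = 0.000445) against uninjured and 2.98 (adjusted p = 0.00259) against 1 dpi. The rises in control libraries, 1.82 against uninjured (adjusted p = 0.0213) and 2.10 against 1 dpi (adjusted p = 0.0319), were lost with the pair as 1 library. They were also lost without either uninjured or either 5 dpi control library (1.64 to 2.28), and the second also without either 1 dpi control or either Olig2 5 dpi library.

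Itgb1, the beta chain shared by most laminin, collagen and fibronectin receptors, rose from 2477 and 2406 in uninjured control libraries to 4289 and 8068 at 1 dpi and 12166 and 5799 at 5 dpi. Its Olig2 values were 1947 and 1186, then 3009.5 and 3129.7, then 16305 and 15949. The Olig2 libraries at 5 dpi were the highest of the 12 and the uninjured libraries of both genotypes the lowest. Both Olig2 rises to 5 dpi were firm, by 3.41 (SE 0.37, adjusted p = 9.69e-05) against uninjured and by 2.39 (adjusted p = 0.00223) against 1 dpi. In control libraries Itgb1 rose by 1.27 at 1 dpi (adjusted p = 0.0292) and by 1.78 at 5 dpi (adjusted p = 0.00745). The first was lost with the pair as 1 library, without either uninjured control library and without 1 dpi replicate 2 (0.81 to 1.29). The second was lost without uninjured replicate 2 or 5 dpi replicate 1 (1.76 and 1.25).

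Itgb8, whose protein binds the alpha v chain and latent TGF-beta, was the other beta chain with firm calls. Control libraries held 1301 and 1154.5 before injury, then 381 and 551, then 1798 and 2569. Olig2 libraries held 969 and 1785, then 1244 and 1415, then 4039 and 3519. The 1 dpi control libraries were the lowest of the 12 and did not overlap any other group. The rise from 1 to 5 dpi in control libraries (2.23, SE 0.31, adjusted p = 0.00632) and that from uninjured to 5 dpi in Olig2 libraries (1.52, adjusted p = 0.00415) were firm. The Olig2 rise from 1 to 5 dpi (1.51, adjusted p = 0.00939) was lost without 1 dpi or 5 dpi replicate 1 (1.41 in both). The fall at 1 dpi in control libraries (-1.42, adjusted p = 0.00764) was lost with the pair as 1 library and without uninjured or 1 dpi replicate 1 (-1.33 and -1.15).

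Itga6, which pairs with beta 1 or beta 4 as a laminin receptor, was at 59 and 61.9 in uninjured, 216 and 194.5 in 1 dpi and 341.5 and 456 in 5 dpi control libraries. Olig2 libraries had 187 and 55.9, 322 and 161, and 597 and 867. Control groups rose at each step without overlap, while the uninjured and 1 dpi Olig2 libraries overlapped. The Olig2 rise to 5 dpi was firm (2.80, SE 0.57, adjusted p = 0.00445). The control rise to 5 dpi (2.69, adjusted p = 0.00833) was lost with the pair as 1 library and without either uninjured library or 5 dpi replicate 2 (2.48 to 2.72). That to 1 dpi (1.75, adjusted p = 0.0461) was lost under quantile normalization, with the pair as 1 library and without any of 8 single libraries (1.67 to 1.82).

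Itga1, a collagen and laminin receptor chain, was at 5.0 and 2.0 in uninjured, 1.6 and 7.8 in 1 dpi and 368.5 and 141 in 5 dpi control libraries. The Olig2 values were 9.4 and 12.7, then 48.2 and 13.8, then 159.8 and 159. The 5 dpi libraries of both genotypes lay above all others. The control rise against uninjured was firm (5.75, SE 0.96, adjusted p = 0.00256), that against 1 dpi (5.58, adjusted p = 0.0120) was lost without 5 dpi replicate 1 (4.89), and the Olig2 rise against uninjured (3.75, adjusted p = 0.0144) without Olig2 uninjured replicate 1 or either Olig2 5 dpi library (3.55 to 3.75).

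Itga3, also a laminin-binding alpha chain, was in control libraries at 127 and 128.5, 157 and 128, and 155 and 213. Olig2 libraries had 210.4 and 79.1, then 95.3 and 22.3, then 722 and 874. The 2 highest values of the 12 were those of Olig2 at 5 dpi, and the rise from 1 to 5 dpi was firm (4.07, SE 0.68, adjusted p = 0.00329). That from uninjured (2.61, adjusted p = 0.0154) was lost without Olig2 uninjured replicate 2 or either Olig2 5 dpi library (1.91 to 2.75).

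The other 3 integrins named by the selection rule had no firm call. Itga4, a chain best known from leukocytes, was at 158 and 148, 26.4 and 53.4, and 106 and 141 in control libraries, and at 167 and 133, 58 and 59.1, and 39.9 and 52.1 in Olig2 libraries. It passed as lower at 1 dpi in control (-2.00, adjusted p = 0.0234) and at 5 dpi in Olig2 libraries (-1.69, adjusted p = 0.0412), and both calls were lost with the pair as 1 library and without either uninjured control library. The first was also lost without 1 dpi replicate 1, and the second without any uninjured or 5 dpi Olig2 library (-2.04 to -1.5 over both). Itgb4, the partner of alpha 6 in hemidesmosomes, was at 256 and 286, 380.2 and 452, and 397 and 674 in control and at 384 and 114, 741 and 1042, and 365 and 565 in Olig2 libraries. Only its rise at 1 dpi in Olig2 libraries passed (2.07, adjusted p = 0.0397), and it was lost with the pair as 1 library and without any of 9 single libraries (1.19 to 2.31). Itga2, a collagen receptor chain, was at 2.6 and 0, 0 and 0, and 44.2 and 34.5 in control and at 0 and 0, 170.2 and 8.1, and 0.7 and 5.1 in Olig2 libraries. Its call at 5 dpi in control libraries (limma adjusted p = 0.0436) was lost without any of 8 single libraries. That at 1 dpi in Olig2 libraries (adjusted p = 0.0435), where 1 library held most of the value, was lost without any of 11. Both were also lost with a pseudocount of 8, under quantile normalization and with the pair as 1 library. Itgb5, another partner of alpha v, was at 421.8 and 427.0, 390.9 and 180.3, and 559.8 and 628.7 in control and at 313.3 and 396.0, 127.8 and 120.6, and 297.9 and 398.1 in Olig2 libraries. It fell by 1.5 at 1 dpi (adjusted p = 0.0423) and rose by 1.46 from 1 to 5 dpi (adjusted p = 0.0316) in Olig2 libraries, and both calls were lost with the pair as 1 library and without 10 and 6 single libraries.

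**Figure D2:**
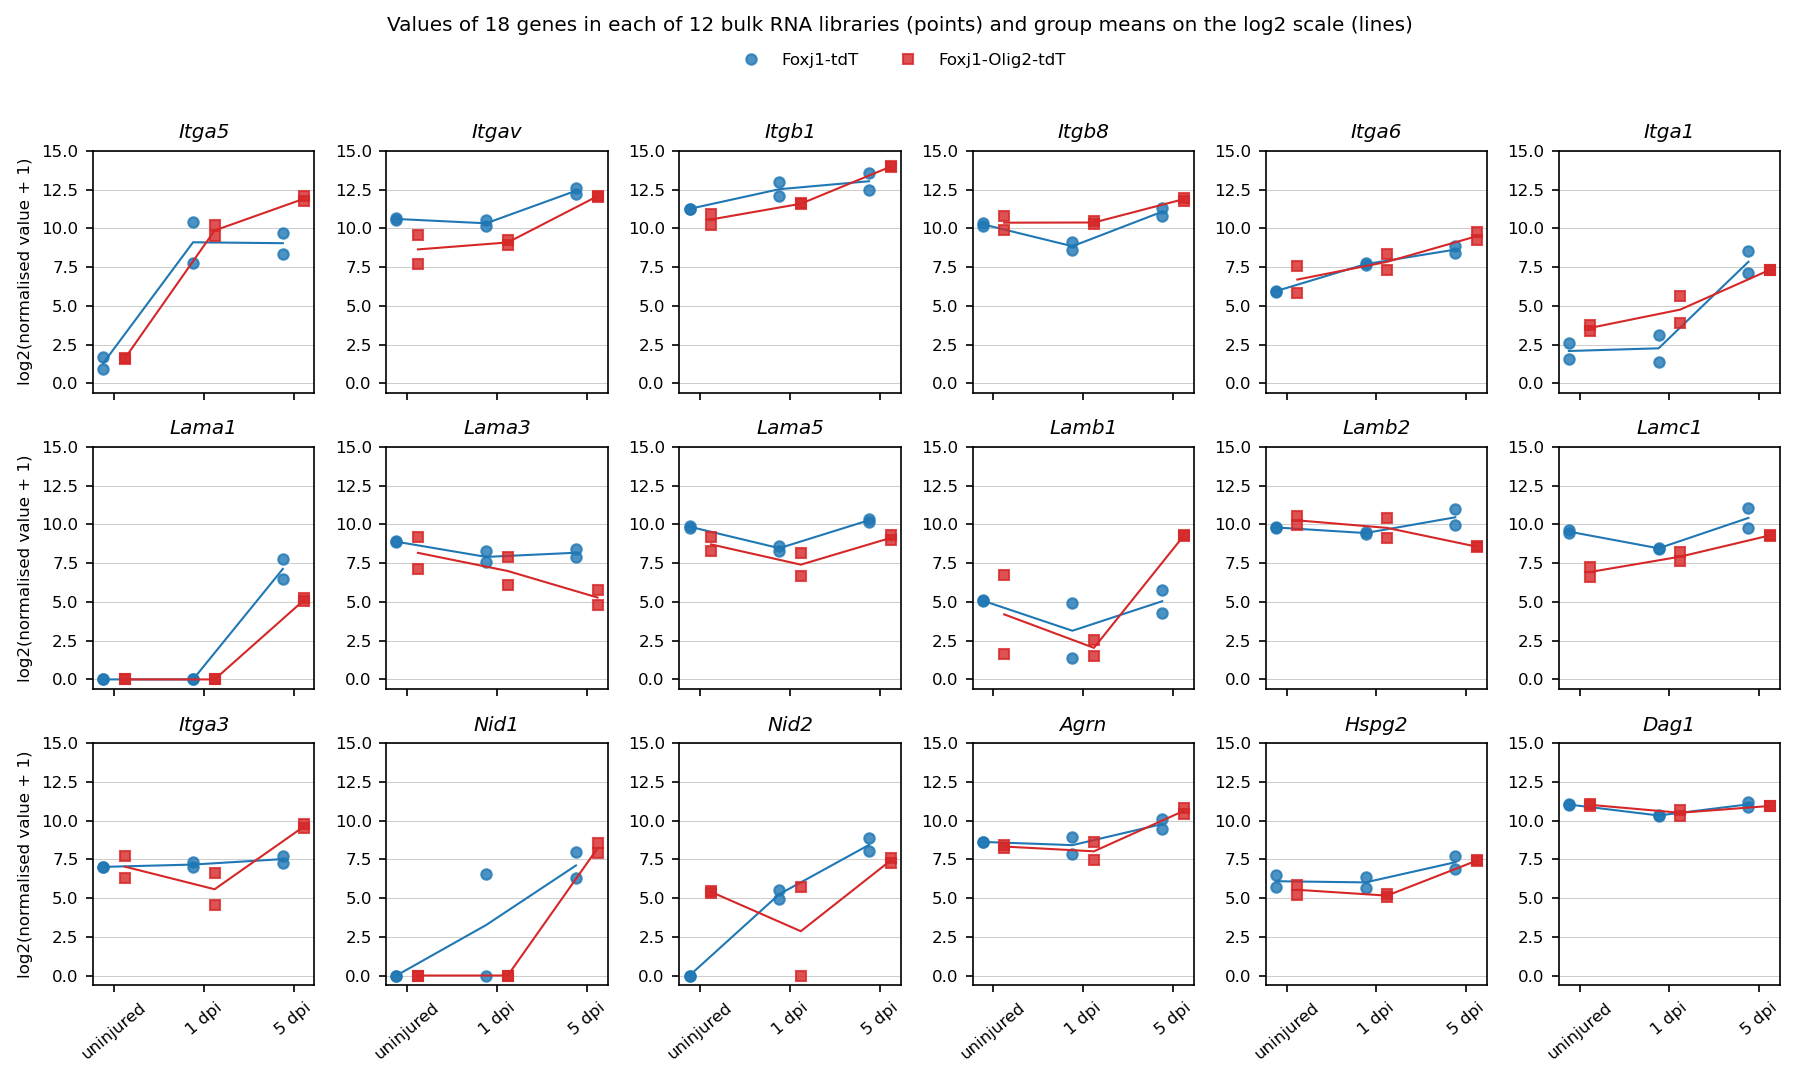
Normalised values on the log2(value + 1) axis of 18 genes by time after injury; each point is 1 library, circles are Foxj1-tdT and squares Foxj1-Olig2-tdT, and lines join the group means. Itga5 goes from below 3 to above 200 normalised counts in all 8 libraries after injury, Lama1 is above 0 in the 4 libraries of 5 dpi alone, and Lama3 and Lamb2 lie lower in the Olig2 than in the control libraries at 5 dpi.

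Of the 10 laminin chains, 1 rose and 0 fell in control libraries at 5 dpi against uninjured, and 3 rose and 2 fell in Olig2 libraries (1 and 0, and 2 and 2, with the pair as 1 library). These are 10% and 50% of the chains, where 23% and 31.2% of all genes were called. Lama1, the alpha chain of the early embryonic laminin, was listed at 0 in all 8 libraries of uninjured cord and of 1 dpi. At 5 dpi it was at 87 and 221 in control and at 31.8 and 36.9 in Olig2 libraries. All 4 libraries of 5 dpi were above 0, and no fold is given against groups at 0. The 4 rises to 5 dpi, from uninjured and from 1 dpi in each genotype, were firm, with limma adjusted p between 0.000483 and 0.00398.

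Lamc1, the gamma chain of most laminins, was at 706.5 and 779 in uninjured, 354 and 347 in 1 dpi and 882 and 2121 in 5 dpi control libraries. Olig2 libraries held 151 and 97.5, then 298 and 195, then 648.5 and 605. The Olig2 uninjured libraries were the lowest of the 12, and each Olig2 group lay above the one before it. The Olig2 rise from uninjured to 5 dpi was firm (2.36, SE 0.42, adjusted p = 0.00197). The control rise from 1 to 5 dpi (1.96, adjusted p = 0.0252) was lost with the pair as 1 library and without any uninjured or 1 dpi control library or 5 dpi replicate 2 (1.33 to 1.98).

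Lamb1, a beta chain that pairs with gamma 1, was at 34.1 and 31.8, 1.6 and 28.9, and 54.5 and 18.6 in control libraries. Olig2 libraries had 107.5 and 2.1, then 4.8 and 1.9, then 597 and 635. The 2 Olig2 libraries of 5 dpi stood far above all others, of which Olig2 uninjured replicate 1 was the highest. The rise from 1 dpi (7.23, SE 1.60, adjusted p = 0.0141) held with the pair as 1 library and was lost without any 1 of the 4 libraries compared (6.73 to 7.73). That from uninjured (5.07, adjusted p = 0.0355) was lost with the pair as 1 library, without either uninjured control library, and without Olig2 uninjured replicate 2 or either Olig2 5 dpi library (2.51 to 5.12).

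Lama5, the alpha chain of laminins of mature basement membranes, was at 961 and 890.1, 313 and 397, and 1149 and 1330.3 in control libraries. Its Olig2 values were 574 and 304, then 279 and 101, then 499 and 626. In both genotypes the 1 dpi libraries were the lowest. The fall at 1 dpi in control libraries (-1.39, adjusted p = 0.0467) and the rises from 1 to 5 dpi in control (1.81, adjusted p = 0.0477) and Olig2 libraries (1.72, adjusted p = 0.0326) passed. All 3 were lost with the pair as 1 library and without 8, 8 and 5 single libraries (-1.56 to -1.22, 1.64 to 1.98 and 1.00 to 1.89).

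Lama3 and Lamb3 encode an alpha and a beta chain of the laminin of epithelial hemidesmosomes. Lama3 was at 479 and 465, 305 and 186, and 239.5 and 345 in control libraries and at 578 and 141, 234 and 68.2, and 53.6 and 26.8 in Olig2 libraries. The 2 lowest values were those of Olig2 at 5 dpi, and the fall from uninjured passed (-2.88, SE 0.75, adjusted p = 0.0155) but was lost without Olig2 uninjured replicate 1 or 5 dpi replicate 2 (-1.87 and -2.39). Lamb3 was at 102.5 and 49.7, 2.6 and 2.7, and 14.1 and 40.1 in control libraries and at 34.4 and 24.7, 5.3 and 13.0, and 21.5 and 0.2 in Olig2 libraries. It fell at 1 dpi in control libraries (-4.31, adjusted p = 0.0331), a call lost without any 1 of the 4 libraries compared and with the pair as 1 library (-4.83 to -3.80).

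Lamb2, a beta chain of vascular and pial laminins, had 878.0 and 908.6 normalised counts in uninjured, 712.7 and 677.6 in 1 dpi and 975.3 and 2029.2 in 5 dpi control libraries. Olig2 libraries held 1495.4 and 1006.4, then 1373.0 and 558.7, then 385.9 and 368.7. The Olig2 libraries of 5 dpi were the 2 lowest of the 12. Their fall from uninjured passed (-1.70, adjusted p = 0.0142), also with the pair as 1 library, and was lost without Olig2 uninjured replicate 1 or either Olig2 5 dpi library (-1.73 to -1.41). In control libraries no change of Lamb2 passed.

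Of the 2 nidogens and 2 proteoglycans, both nidogens passed as higher at 5 dpi in control libraries, and Nid1, Agrn and Hspg2 in Olig2 libraries. Nid1 was listed at 0 in both control uninjured libraries and in all 4 uninjured and 1 dpi Olig2 libraries, and at 90.8 and 0 in the control libraries of 1 dpi. At 5 dpi it stood at 75.6 and 245 in control and 234 and 370.5 in Olig2 libraries. All 4 libraries of 5 dpi held it, against 1 of the other 8. Its Olig2 rise from uninjured was firm (adjusted p = 0.00487, with no fold against 0). The rise in control libraries (adjusted p = 0.0145) was lost with the pair as 1 library and without either uninjured library or 5 dpi replicate 2, and the Olig2 rise from 1 dpi (adjusted p = 0.0104) without any 1 of the 4 libraries compared.

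Nid2 was at 0 and 0, 45.1 and 30.3, and 258 and 457 in control libraries, and at 39.5 and 42.8, 51.6 and 0, and 155 and 187 in Olig2 libraries. The 4 libraries of 5 dpi were the highest. The control rise to 5 dpi was firm (adjusted p = 0.00304), and that to 1 dpi (adjusted p = 0.0239) was lost with the pair as 1 library and without any 1 of the 4 libraries compared. No Olig2 change of Nid2 passed.

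Agrn held 392 and 394 in uninjured, 230.5 and 499.9 in 1 dpi and 707 and 1076 in 5 dpi control libraries. Its Olig2 values were 293 and 346, then 171 and 386, then 1799 and 1378.5. All 4 libraries of 5 dpi lay above the other 8. The Olig2 rises to 5 dpi, by 2.30 from uninjured (SE 0.45, adjusted p = 0.00371) and by 2.61 from 1 dpi (adjusted p = 0.00414), were firm, and no change in control libraries passed. Hspg2 was likewise highest in the 4 libraries of 5 dpi, with 51.2 and 87.2, 48.9 and 82.0, and 117 and 212 in control and 36.0 and 56.7, 36.8 and 32.6, and 175 and 165 in Olig2 libraries. Its Olig2 rises from uninjured (1.89, adjusted p = 0.0374) and from 1 dpi (2.26, adjusted p = 0.0331) were lost with the pair as 1 library, without either uninjured control library and without either Olig2 5 dpi library. The first was also lost without Olig2 uninjured replicate 1 and under quantile normalization, and the second without either Olig2 1 dpi library (1.57 to 2.35 over both).

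Markers of fibroblasts, which make nidogens and other basement membrane proteins, moved with these rises. Of 6 markers 5 were measured, and their summed share of a library was 0.0351% to 0.0744% in the 4 libraries of 5 dpi and 0.00124% to 0.00728% in 7 of the other 8. The exception was control 1 dpi replicate 1 at 0.106%, which came from Dcn (13599.8 there and 0.5 in replicate 2). It is also the 1 library of 1 dpi that held Nid1. The same library had the highest share of oligodendrocyte markers (6 measured), 0.151%, against 0.00233% in replicate 2. Pdgfra was at 437.1 in Olig2 5 dpi replicate 1. Summed markers of endothelium (4 measured) reached at most 0.00203% and those of pericytes (3 measured) at most 0.003% of any library. Microglial markers (3 measured) reached 0.0104% and those of other myeloid cells (3 measured) 0.000479%. Other markers moved with time as well. Oligodendrocyte markers were lower at 5 dpi, at 0.00598% and 0.011% in control libraries, against 0.0864% and 0.0899% in uninjured ones. In Olig2 libraries they were at 0.00941% and 0.00479%, against 0.0308% and 0.0168%. Those of oligodendrocyte progenitors (6 measured) were at 0.000882% to 0.00105% in uninjured and 0.00872% to 0.0312% in 5 dpi control libraries, and at 0.00429% to 0.00837% and 0.0376% to 0.0535% in Olig2 libraries, where 4 of the 5 tested rose. Those of neurons (3 measured) were at 0.0234% to 0.0787% in the 4 libraries of 5 dpi and at 0.00773% to 0.0192% in the uninjured ones, with 1 of 3 called higher in each genotype. Of the 3 pericyte markers 2 passed as higher in control and 1 in Olig2 libraries at 5 dpi, and 0 in either with the pair as 1 library. The part of these cells in these and the other rises at 5 dpi was not tested.

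Dag1, the laminin receptor outside the integrin family, moved little. Control libraries held 2022 and 2164 before injury, then 1268 and 1296, then 2377 and 1871. Olig2 libraries held 2183 and 1939.8, then 1668 and 1255, then 1925 and 2001.5. The control libraries of 1 dpi lay below those of the other control groups, and this fall was its only call (-0.71, adjusted p = 0.0202), lost with the pair as 1 library and without any 1 of the 4 libraries compared (-0.76 to -0.66). At 5 dpi its log2 fold change against uninjured was 0.01 in control and -0.07 in Olig2 libraries.

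In 9 members no comparison passed. Itgb3, the beta 3 partner of alpha v, reached 227.8 to 280.9 in Olig2 libraries at 5 dpi (4.34 against uninjured, adjusted p = 0.0757). Itga2b, known from platelets, ranged from 105.7 to 442.2 over the 12 libraries and Itga7 from 8.0 to 247.9. The other 6, Itga9, Itga10, Itga11, Itgae, Lama2 and Lama4, stayed below 86 in every library. Lama4, the alpha chain of vascular laminins, was at 0 in 7 of 12 libraries and at most 41.6.

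Between genotypes few members passed, in numbers near the share of all genes called. With 2 libraries a group, not passing does not show that a member was alike in both genotypes. Without injury 0 members were higher and 2 lower in Olig2 libraries (7.79% of all genes called, 4.72% higher and 3.07% lower). At 1 dpi 1 was higher and 0 lower (1.84% called, 1.29% higher and 0.55% lower), and at 5 dpi 0 were higher and 3 lower (9.23% called, 3.36% higher and 5.88% lower). The numbers with an unadjusted p under 0.05 were 5, 8 and 16, and with the pair as 1 library 0, 0 and 1 members passed, where 1.33%, 0.491% and 5.71% of all genes did. With a pseudocount of 8, 8 members passed at 5 dpi, 3 higher and 5 lower. The share of all genes called with that pseudocount was not computed, so this count is not shown to exceed it. None of the 6 calls was firm.

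Among the laminin chains, Lama3 (-2.89, adjusted p = 0.0404) and Lamb2 (-1.90, adjusted p = 0.0240) were lower in Olig2 than in control libraries at 5 dpi. The groups did not overlap for either of them: the control libraries held 239.5 and 345 of Lama3 and 975.3 and 2029.2 of Lamb2, and the Olig2 libraries 53.6 and 26.8, and 385.9 and 368.7. With the pair as 1 library only Lamb2 still passed, and it was lost without control 5 dpi replicate 2 or either Olig2 5 dpi library (-1.93 to -1.37). The call of Lama3 was also lost without any 1 of the 6 control libraries or of the 2 Olig2 libraries of 5 dpi (-3.38 to -2.40). Ependymal markers differed between the same groups: 6 of 7 were lower in Olig2 libraries at 5 dpi and their summed share was 0.0395% to 0.0552% against 0.199% to 0.239%. Their part in the laminin differences was not tested.

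Without injury Lamc1 (-2.60, adjusted p = 0.00554) and Itgav (-1.96, adjusted p = 0.0340) were lower in Olig2 libraries, with 151 and 97.5 against 706.5 and 779 for Lamc1 and 204 and 772 against 1499 and 1613 for Itgav. The groups did not overlap for either gene, but both calls were lost with the near-identical pair as 1 library, at unchanged fold changes, and without either member of that pair. That of Itgav was also lost without any 1 of the 4 libraries of 5 dpi. At 1 dpi Itgb8 was higher in Olig2 libraries (1.53, adjusted p = 0.0373), a call lost with that pair as 1 library and without any of 8 single libraries (1.27 to 1.80).

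Whether the injury response itself differed between genotypes was tested as an interaction. At 1 dpi 0 members passed (limma, also 0 with the pair as 1 library, where 0.428% of all genes did; 2.77% of all genes called, 0.923% higher and 1.85% lower), with 4 at an unadjusted p under 0.05. At 5 dpi 1 passed, Lamb2 (-2.35, adjusted p = 0.0473; 7.28% of all genes called, 2.64% higher and 4.64% lower), with 7 at an unadjusted p under 0.05. At neither time was the share of all genes under the unadjusted threshold computed. The pair as 1 library ended the call of Lamb2 (1.6% of all genes then passed), as did leaving out any of 8 single libraries (-2.39 to -1.83). The larger number of members that rose in Olig2 libraries at 5 dpi is therefore not, gene by gene, a tested difference between genotypes.

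Other genes of the same machinery were counted from 5 lists at 5 dpi against uninjured. For single genes named from the lists, results without single libraries are not given, nor, except for Npnt, those with the pair as 1 library. None of them is therefore called firm. Beside each count stand the shares of all genes: in Olig2 libraries 17.2% rose and 14% fell (26.4% called with the pair as 1 library), and in control libraries 13.8% rose and 9.21% fell (8.28%). The first list held 33 genes of the adhesion complex, among them the membrane proteins Cd9, Cd47, Cd81 and Cd151. Of these 33, 18 rose and 1 fell in Olig2 libraries at 5 dpi against uninjured (17 and 0 with the pair as 1 library). In control libraries 8 rose and 0 fell (2 and 0). The control count is 24.2% of the list, near the 23% of all genes called. Ilk, the kinase-like scaffold that binds beta integrin tails, rose from a range of 1753 to 2097 in uninjured to 5478 to 5968 in 5 dpi Olig2 libraries (1.58, adjusted p = 0.000115), and its partner Lims1 rose by 3.32 (adjusted p = 7.87e-05). Zyx, zyxin, a protein of stress-fibre adhesions, rose by 4.34 (adjusted p = 0.000146). Cd151, a tetraspanin that binds laminin-receptor integrins, rose by 2.98 in control (adjusted p = 8.97e-05) and 1.32 in Olig2 libraries (adjusted p = 0.00261).

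Of 18 integrin ligands other than laminins, 11 rose and 1 fell in Olig2 libraries at 5 dpi and 7 rose and 1 fell in control libraries (10 and 0, and 4 and 0, with the pair as 1 library). These are 66.7% and 44.4% of the list, where 31.2% and 23% of all genes were called. Fn1, fibronectin, the ligand of alpha 5 with beta 1, held 239.4 to 242.7 before injury and 15673 to 34343 at 5 dpi in control libraries (6.58, adjusted p = 7.71e-05). In Olig2 libraries it held 123.8 to 164.5 and 9246 to 12615 (6.23, adjusted p = 1.86e-05). Npnt, nephronectin, a ligand of alpha 8 with beta 1, was the gene that fell, by 1.19 and 0.93 (adjusted p = 0.0121 and 0.0260), in both cases a call lost with the pair as 1 library.

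Of 20 collagens and other proteins of basement membranes, 8 rose and 0 fell in control libraries at 5 dpi, and 8 rose and 3 fell in Olig2 libraries (7 and 0, and 8 and 1, with the pair as 1 library). These are 40% and 55% of the list, where 23% and 31.2% of all genes were called. Col4a6, a collagen IV chain, held 0.9 to 1.1 before injury and 638 to 766.1 at 5 dpi in control libraries (8.45, adjusted p = 6.12e-05), and 1.0 in both and then 1172.3 to 1275.7 in Olig2 libraries (9.26, adjusted p = 6.3e-06). Col4a1, a chain of the collagen IV found in all basement membranes, behaved otherwise. Control libraries held 108.6 to 155.2 before injury and 940.5 to 1936.1 at 5 dpi (3.37, adjusted p = 0.000717). Olig2 libraries held 331.5 to 389.9 without injury and 113.1 to 211.9 at 5 dpi (-1.21, adjusted p = 0.0604). At 5 dpi Col4a1 was lower in Olig2 than in control libraries (-3.12, SE 0.44, adjusted p = 0.00228), and the interaction passed (-4.58, adjusted p = 0.00402). Col4a2, its partner chain, was also lower in Olig2 libraries at 5 dpi (-4.07, limma adjusted p = 0.0235). How these genotype calls and the interaction of Col4a1 fare with the pair as 1 library is not given here.

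Of 13 binding partners of dystroglycan, 0 rose and 1 fell in control (0 and 0 with the pair as 1 library) and 2 rose and 2 fell in Olig2 libraries at 5 dpi (0 and 2). These are 7.69% and 30.8% of the list, below the 23% and 31.2% of all genes. Of 12 enzymes that build the laminin-binding sugar of dystroglycan, 2 rose and 2 fell in control libraries (2 and 0 with the pair as 1 library), where 23% of all genes were called. In Olig2 libraries 0 of the 12 passed (limma), where 31.2% of all genes did.

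The chromatin of uninjured cord was measured in 1084 single cells of 1 sample, in 8 classes named by the authors. These were 3 ependymal classes (EP1, EP2 and EP3 with 301, 290 and 163 cells), 2 of astrocytes (ACNT1 with 111 and ACNT2 with 62), and oligodendrocyte progenitors (OPC, 67), endothelium (VEC, 50) and pericytes (PER, 40), where the last 5 names are readings of the authors' abbreviations. Foxj1 was at 235 to 282 CPM in the ependymal classes and 26.3 to 132 elsewhere, and the astrocyte gene Aldh1l1 at 71.8 to 86.2 in ACNT1 and ACNT2 and at most 17 elsewhere. Sox10 was at 72.4 in OPC and Cldn5 at 147 in VEC, each highest there. The reading of PER had mixed markers: Pdgfrb (83.8) and Kcnj8 (19.1) were highest in it, Abcc9 (1.06, against 7.48 in OPC) and Vtn (35.0, against 50.4 in OPC) were not, and Rgs5 and Higd1b had 0 cuts in every class. The fibroblast genes Col1a2 (81.7) and Dcn (9.55) were also highest in PER, so it is called by the authors' name alone below. Values below are transposase cuts in peaks within 2 kb of a gene's start, or, for 11 members with no promoter entry, of either gene end, as counts-per-million of the class (CPM), with exact 95% Poisson intervals that cover counting error only. With 1 sample there is no replicate check and no test.

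Of the 28 members with at least 20 cuts, 9 were highest in PER, 8 in VEC, 3 in ACNT1, 2 in ACNT2, 3 in OPC and 3 in an ependymal class. The same ranking was not made over all genes, so these counts are not shown to be particular to the members. VEC and PER held the fewest cuts of the 8 classes (456548 and 942348), so their CPM values vary most by counting error. By the share of cells with a cut, which depends on the cuts per cell, 12 of the 28 were highest in an ependymal class. Among the 3 by CPM were Itgb4, the beta chain of the hemidesmosome, and Lama3, a chain of its laminin ligand. Itgb4 was at 18 in EP1, 30.3 (27.6 to 33.2) in EP2 and 23.7 in EP3, against 2.27 to 3.38 in the astrocyte classes, 6.69 (3.90 to 10.7) in OPC and 0 (up to 8.08) in VEC. The intervals of EP2 and OPC did not overlap. Lama3 was at 27.7 to 31.0 in the ependymal classes, against 1.69 and 9.08 in the astrocyte classes and 4.72 in OPC, but VEC was at 30.7 (16.8 to 51.5), level with EP2 at 31.0 (28.3 to 33.9). Lamb3 had 13 cuts in all and was not ranked.

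The 2 laminin chains whose promoters are printed above differed in their order over classes. Lama5 was at 44.9 in EP1, 51.6 (48.1 to 55.4) in EP2 and 32.1 in EP3, against 14.2 (9.92 to 19.6) in OPC and 21.2 (13.0 to 32.8) in PER, and VEC at 61.3 (40.8 to 88.6) had an interval that overlaps that of EP2. Lamb2 was at 28.0 (25.4 to 30.8) in EP2, 5.51 (3.01 to 9.24) in OPC, 65.8 (50.4 to 84.3) in PER and 78.9 (55.2 to 109) in VEC, the intervals of PER and VEC lying above that of EP2.

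Itgb8, high in all bulk libraries, was open in the glial classes, with 101 (91.9 to 112) in EP1, 76.9 in EP2, 94.2 in EP3 and 118 (98.8 to 139) in ACNT1, against 39.3 in PER and 13.1 (4.82 to 28.6) in VEC. Itga5, nearly absent from uninjured bulk libraries, had 4.37 (2.59 to 6.90) CPM in EP1, 4.51 in EP2 and 6.75 (4.76 to 9.31) in EP3, against 37.2 (21.7 to 59.6) in VEC and 81.7 (64.5 to 102) in PER. Itga1 was at 5.48 to 10.4 in the ependymal classes, 44.6 in PER and 98.6 (71.9 to 132) in VEC. These 2 integrins were picked from the members that rose after injury, and other members differed from them. Lama1, at 0 in the uninjured bulk libraries, was at 19.8 to 22.3 in the ependymal classes. Itga4, at 133 to 167 in the uninjured bulk libraries, was at 4.02 to 12.6 there. How cuts and bulk values go together over all members was not tested. Itgb1 and Lamc1, both expressed in uninjured bulk libraries, had 47.6 to 82.2 and 52.4 to 102 in all 8 classes.

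Itga6 and Agrn were highest outside the ependymal classes. Itga6 was at 71.9 (57.4 to 88.9) in ACNT1 and 60.4 in ACNT2, against 21.2 in EP2. Agrn was at 102 (84.9 to 122) in ACNT1 and 103 in VEC, against 32.3 to 38.2 in the ependymal classes. Lama4 was at 2.19 to 5.34 in the ependymal classes, 42.1 (34.5 to 50.9) in OPC and 34.0 in PER. VEC and PER are small classes, and VEC held 456548 cuts in all against 15283010 of EP2, so their intervals are wide.

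**Figure D3:**
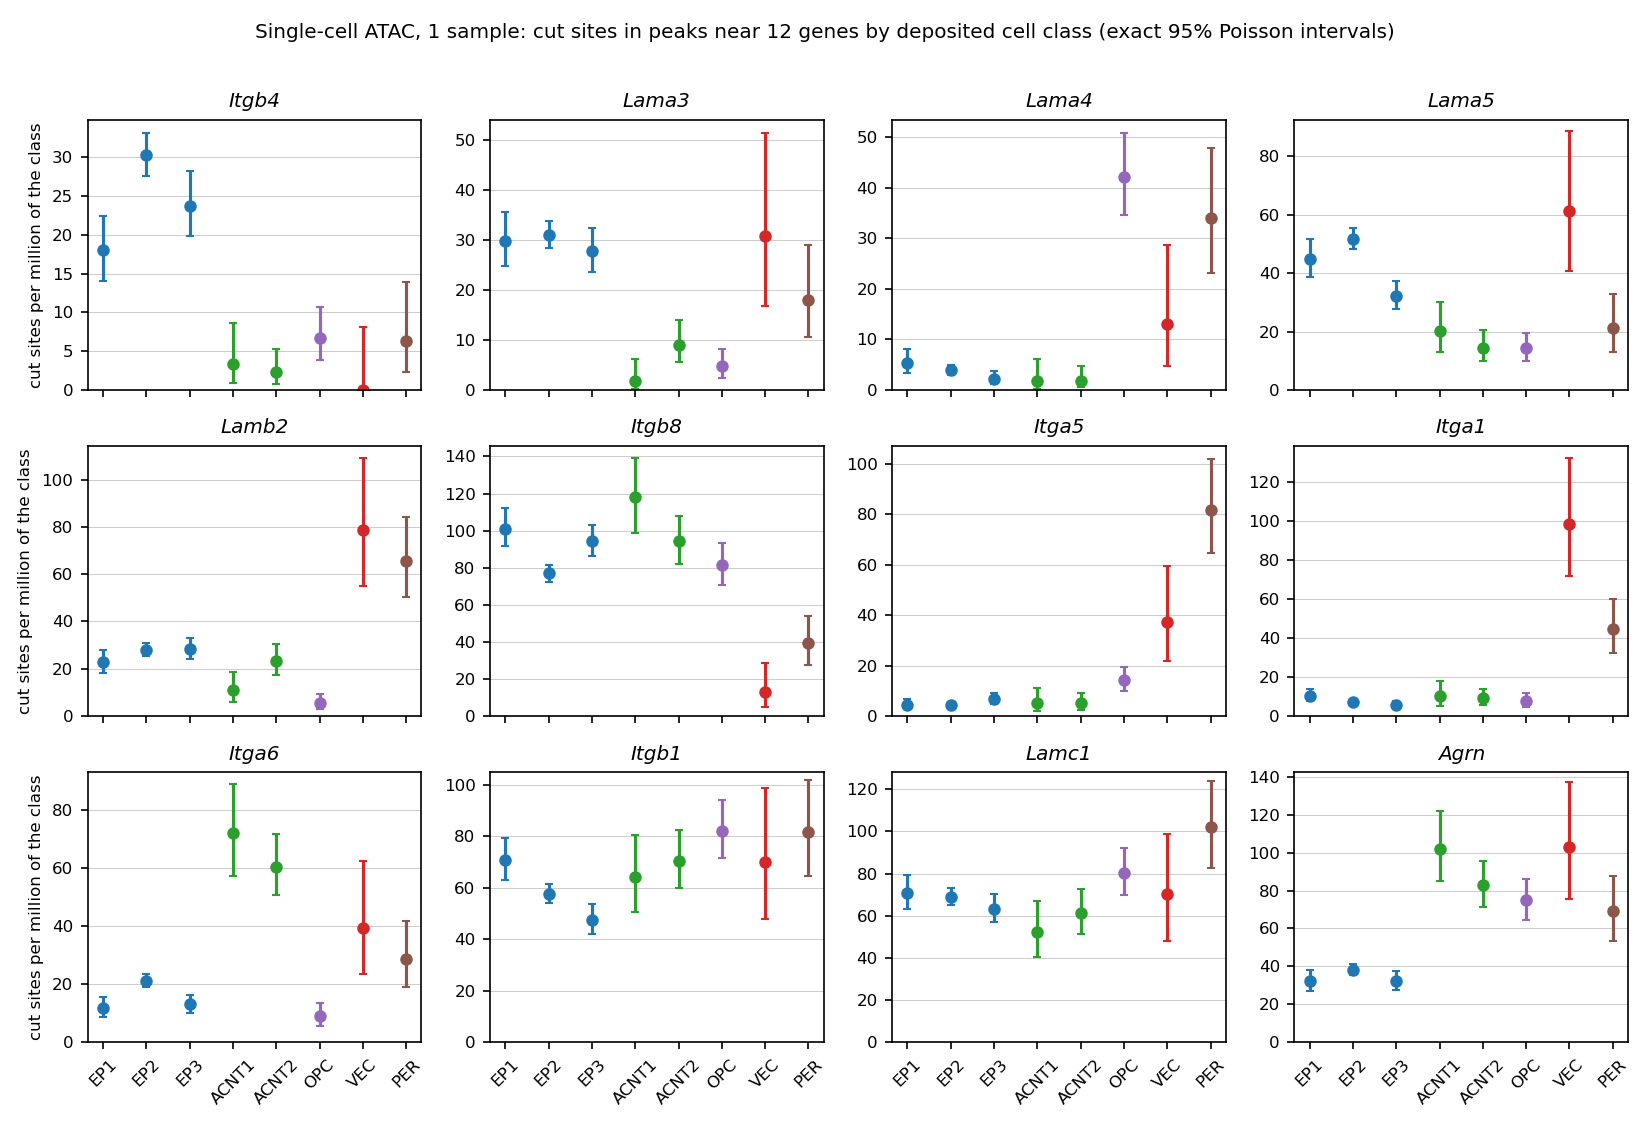
Cuts in peaks near 12 genes as CPM of each of 8 cell classes in the single-cell ATAC sample of uninjured cord, with bars for exact 95% Poisson intervals. Itgb4 is highest in the 3 ependymal classes (18 to 30.3), Itga5 and Itga1 are under 10.5 there and highest in PER (81.7) and VEC (98.6), and Itgb1 and Lamc1 are at 47.6 or more in all classes.

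The single-cell RNA table held 3500 cells of 6 libraries named by codes, 017, 018, 019, 020, 072 and 073. The codes could not be tied to the labels' genotypes and times, so values are given per library, with no comparison of conditions. The authors kept 3285 cells with a median of 5722 UMIs (unique molecules), and 215 cells, 176 of them of library 020, are given apart; 7 barcodes were shared by libraries. The kept cells had high summed ependymal markers in every library (5660 to 12100 CPM, here of all UMIs of the kept cells of a library). Libraries 020 and 073 stood apart: oligodendrocyte markers were at 5730 and 19000 CPM, against 34 to 525 in the other 4, and fibroblast markers at 235 and 780, against 14.2 to 35.3. Markers of oligodendrocyte progenitors were at 720 and 978, against 29.9 to 113, and in 020 those of other myeloid cells were at 2770, against 0 to 101 elsewhere. Of the 33 members, 23 had at least 20 UMIs over the kept cells.

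The genes with most UMIs are given first. Dag1 was at 45.7 to 70.1 CPM over the 6 libraries. Itgb1 was at 51.2 in 017, 70.1 in 018, 62.1 in 019, 89.4 (76.9 to 103) in 020, 58.6 (53.5 to 64.1) in 072 and 105 (94 to 117) in 073. Lamb2 was at 54.1, 63.2, 38.9, 28.8 (21.9 to 37.2), 67.3 (61.8 to 73.1) and 23.9 (18.8 to 29.9) in the same order. Itgb1 had its highest and Lamb2 its lowest values in 020 and 073. These are single libraries whose intervals cover counting error only, and that of 020 overlapped that of 018 (63.1 to 77.7) for Itgb1 and that of 019 (30.3 to 49.3) for Lamb2.

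Itgb8 (25.6 to 52.1) and Itgav (18.1 to 40.6) also had their 2 highest values in 020 and 073. Agrn was at 11.2 (7.13 to 16.9) and 14.1 (10.3 to 18.9) there and 4.98 to 6.64 in the other 4. Itga9, a receptor chain for tenascin C, had 19 UMIs in 020 and 43 in 073, 9.29 and 13.5 CPM, 7 UMIs in 072 and 0 in the other 3 (up to 0.707 to 3.5 CPM). Lama5 had its 2 lowest values, 2.44 (0.793 to 5.70) and 5.03, in 020 and 073, with 5.64 in 019 and 13.3 to 16.9 in the remaining 3. Whether these values belong to ependymal cells or to the cells that carry the oligodendrocyte, progenitor, fibroblast and myeloid markers of these libraries was not tested.

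Several members called in bulk RNA at 5 dpi had few UMIs in single cells. Itga5 had 5 UMIs over all kept cells, 0.231 CPM, and 42 in the left-out cells, 15.1 CPM. The left-out cells held high myeloid (27700), microglial (12700) and fibroblast (33600) and low ependymal markers (199). They were not of 1 kind: the 176 of library 020 held 65110 of 76967 myeloid but only 6718 of 93465 fibroblast marker UMIs. These 176 cells also held 36 of the 42 UMIs of Itga5. Of the next 3 genes they held 837 of 880 (Itgb5), 47 of 48 (Itga6) and 62 of 63 (Itga4). Itgb5 (27.8 in kept and 316 in left-out cells), Itga6 (2.59 and 17.2) and Itga4 (1.48 and 22.6) were likewise higher in left-out cells, and Dag1 (66.3 and 17.2) and Itgb8 (37.9 and 1.08) in kept ones. Over the kept cells Nid1 had 7 UMIs, Lama1 1 and Itga2 0 (up to 0.171 CPM). Lama2, which passed in no bulk comparison, had 2. The single-cell samples were taken without injury or at 2 and 4 weeks and the bulk samples without injury or at 1 and 5 days, so the times differ and no comparison is made.

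**Figure D4:**
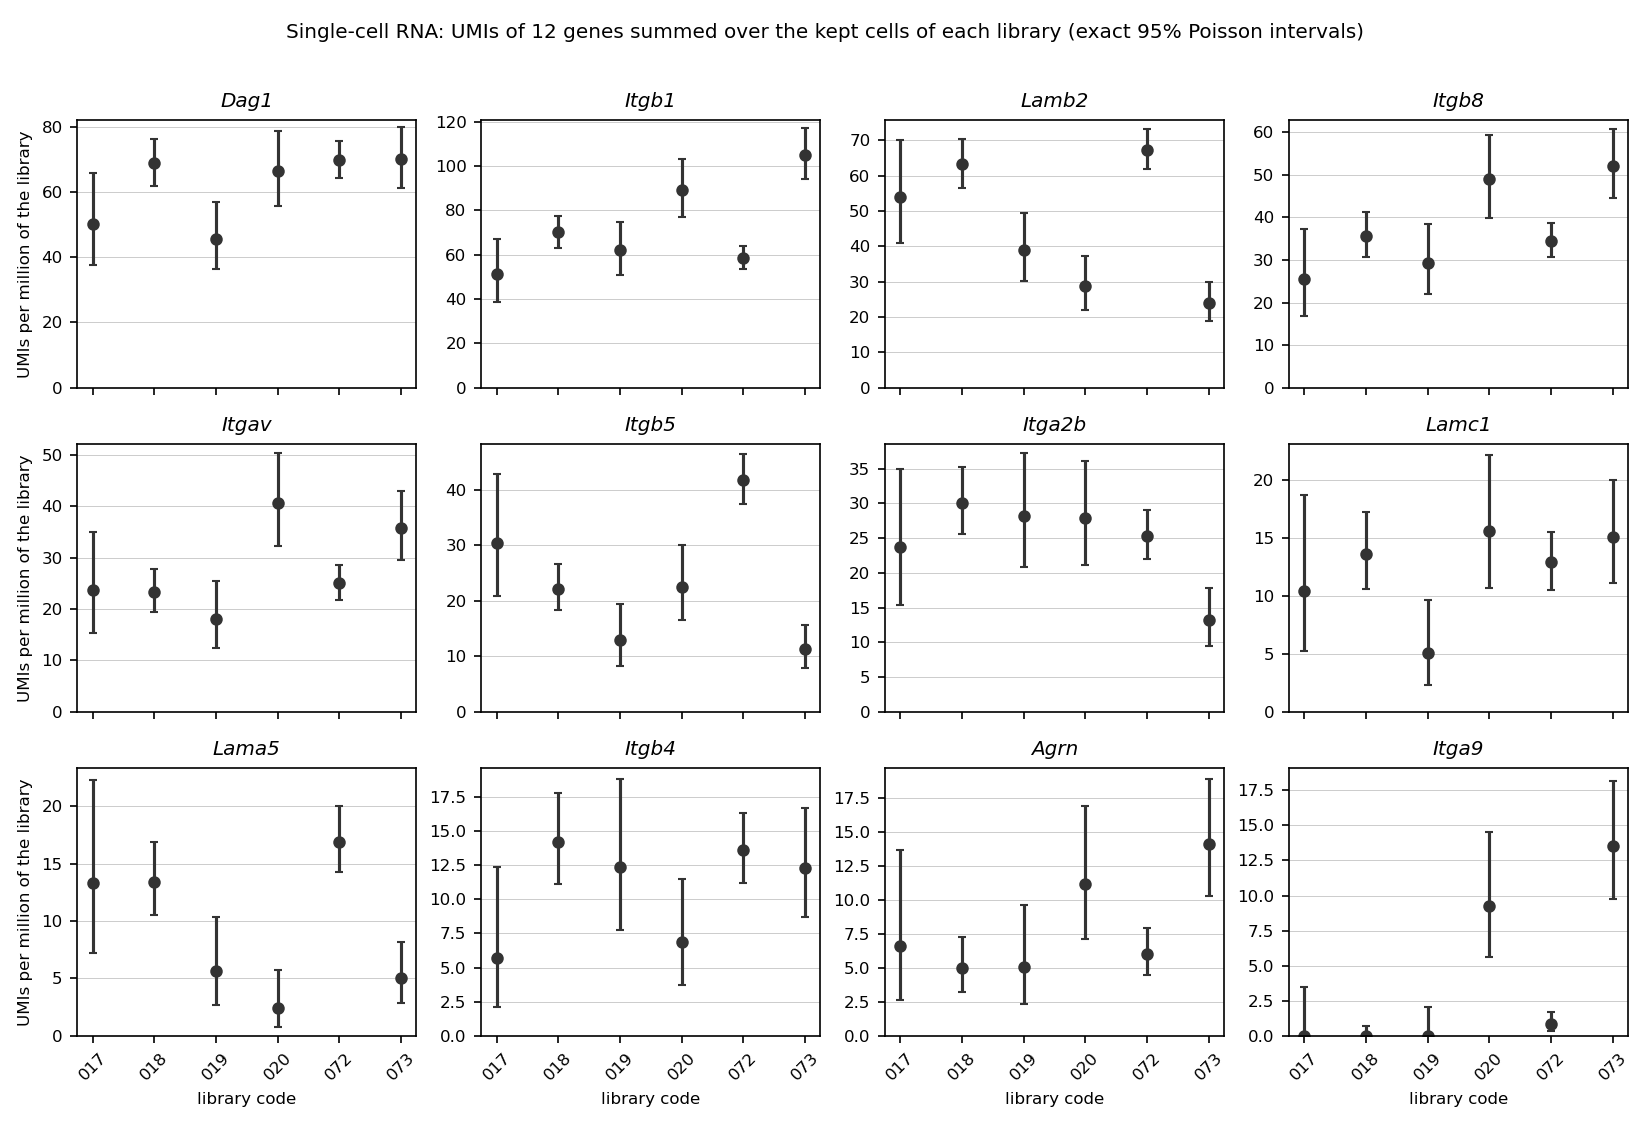
UMIs of 12 genes as CPM (counts-per-million of the library) in the kept cells of each of 6 single-cell RNA libraries, named by code, with bars for exact 95% Poisson intervals. Libraries 020 and 073 hold the 2 highest values of Itgb1 (89.4 and 105) and Itga9 (9.29 and 13.5) and the 2 lowest of Lamb2 (28.8 and 23.9).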

How the data were processed

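Bulk Smart-seq2 RNA of 12 libraries was analysed from 1 table. The authors normalised this signal per gene and library before they deposited it, per the file name and headers, by a method not given in the sources used here, and depth could not be recovered from it. Single-cell RNA values are counts of unique molecules deposited by the authors. Single-cell ATAC values are counts of cuts per peak, deposited by the authors with their cell classes. The submitters' processing notes name mm10, Bowtie2, Cell Ranger, Cell Ranger ATAC, SAMtools and deepTools. Strand use and the treatment of doublets are not given. The 12 bulk ATAC samples were not analysed here.

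Genes were kept where 2 or more libraries reached a value of 10, and tested with limma 3.58.1 (R 4.3.3) with an intensity trend on log2(value + 1), fitting 6 group means to all 12 libraries so that they share 1 estimate of the spread, with Benjamini-Hochberg adjustment over 15811 genes and a threshold of 0.05. A library outside a comparison can thus end its calls. Fold changes are on the log2(value + 1) scale, understate changes of low genes, and are not given against a group at 0. Same-numbered libraries did not deviate together (15 pairs of groups, correlations -0.03 to 0.022). Single-cell counts were summed per library or class (Python 3.11.15, scipy 1.17.1). Promoters are RefSeq entries, matched by symbol for 22 of 33 members.

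The members and lists were chosen with earlier results of these data known. Members given library by library are the 20 with the largest fold among called comparisons whose libraries do not overlap, with a group mean of at least 50, plus Itga6, Itgb1, Itgav, Dag1, Lamb1, Lamc1, Lama4, Lama5, Nid1, Hspg2 and Agrn in any case; Itgb5 and Lamb2, which were called, were added after their values were seen. Single results of 1 member and 1 listed gene, which stay in all counts, are not reported here. Genes named from the 5 lists were chosen after their values were seen. Alternatives were another pseudocount, no filter, 2 other scalings, a replicate block, the near-identical pair as 1 library, and leaving out each library.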

Additional observations from a re-analysis of the deposited data

Results flagged for a closer look

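The injury response of Lamb2 at 5 dpi differed between the genotypes by the interaction term, -2.35 on the log2 scale (limma adjusted p = 0.0473). It was the member for which that test passed, and the call did not hold with the 2 near-identical libraries entered as 1, with a replicate block or without any of 8 single libraries (-2.39 to -1.83).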

How the results depend on the processing

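Of 62 calls of single members, 30 were lost with the near-identical uninjured control pair as 1 library, 40 without at least 1 library, 4 under quantile normalization, 2 with a pseudocount of 8, and 0 without the filter or under median-of-ratios scaling; 0 changed direction. With the pair as 1 library the number of members called between genotypes was 0, 0 and 1 (uninjured, 1 and 5 dpi), in control libraries 1, 5 and 3 (1 dpi and 5 dpi against uninjured, 5 against 1 dpi), in Olig2 libraries at 1 dpi 1, and 0 for the interaction at 5 dpi. With a pseudocount of 8, 8 members passed between genotypes at 5 dpi, and the share of all genes called with it was not computed. With the replicate number as a block, 8 calls were lost, leaving 1 member at 1 dpi in Olig2 libraries and 0 for the interaction at 5 dpi; the numbers do not pair the samples. Leaving out each library in turn gave 0 to 4, 0 to 2 and 0 to 5 members between genotypes. It gave 1 to 9, 4 to 10 and 3 to 9 in control libraries, 1 to 3, 9 to 17 and 5 to 15 in Olig2 libraries, and 0 to 2 for both interactions. With 2 libraries a group, leaving 1 out assumes that the lone library varies like the others. Over whole gene bodies 6 of 33 members had their highest CPM in an ependymal class, against 3 of 28 in the ranking above. By the share of cells with a cut, 12 of 28 were highest in an ependymal class. At a minimum of 100 UMIs, 12 members were detected in single cells, against 23 at 20.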
